A study of Mus musculus with 20 samples.

Results

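The 74 regions described here are 1 kb stretches of the mouse genome that carried H3K4me3 in embryonic stem (ES) cells and in liver but held little H3K27ac in ES cells. They were chosen by measured values: ES H3K4me3 of at least 4 RPM (distinct reads in the bin scaled to the library's total) and at least 3 times the ES H3 level plus 0.1, liver H3K4me3 of at least 1 RPM, and H3K27ac under 0.7 RPM in each of 2 ES libraries. Of 2462502 bins of 1 kb on the 19 autosomes, 20896 passed both H3K4me3 limits, and 74 of these (0.354%) were also under the H3K27ac limit. Joining bins within 1 kb left the members as 74 single-bin regions, against 11882 regions for all 20896 bins. Another 20479 bins (98.0%) reached 0.7 RPM of H3K27ac in both ES libraries and are called acetylated below. The remaining 343 bins (1.64%) reached it in 1 library. Low-H3K27ac bins that failed the liver limit numbered 8.

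The working description of the members was promoters without H3K27ac, and their surroundings went against it. Of the 74 member bins, 71 lay in a run of ES H3K4me3 bins, joined within 1 kb, that also held an acetylated bin. Of the 74, 70 had a bin of at least 0.7 RPM of H3K27ac in both ES libraries directly beside them. Exactly 1 neighbour carried ES H3K4me3 at 69 members, both neighbours did at 2 members, and neither did at 3. The 69 are therefore end bins of unbroken stretches of H3K4me3 bins, and the text calls the members low-acetylation H3K4me3 bins. Among the 11882 regions with H3K4me3 in both ES cells and liver, 3 had every bin under the H3K27ac limit.

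H3K4me3 marks the start of active and of many inactive genes, and H3K27ac, which the acetyltransferases p300 and CBP deposit, marks active promoters and enhancers. H3K4me1 is typical of enhancers and of the flanks of promoters, outside the H3K4me3 peak. In ES cells, promoters of developmental genes often carry H3K4me3 together with the repressive mark H3K27me3, a state called bivalent. H3K27me3 was not analysed here, so no bin is called bivalent or poised.

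The study profiled histone marks by chromatin immunoprecipitation and sequencing (ChIP-seq), mainly H3K4me1 and H3K27ac at distal enhancers, in ES cells and in other mouse cells and tissue. The 1 library each of neural progenitor cells (NPCs), perfused whole liver, mouse embryonic fibroblasts (MEFs) and MEF-derived induced pluripotent stem (iPS) cells used for each mark was set beside ES cells, and p300 in ES cells (2 libraries) was set beside ES whole cell extract (WCE, 1 library). NPCs were grown out of ES cells of the C57BL/6-129 hybrid background through 4 days of embryoid body culture, whole liver is a mixture of cell types, and the iPS library came from 1 line, O6. The ES libraries came from V6.5 cells, a C57BL/6-129 hybrid line, taken off their feeder cells for 1 or 2 passages before fixation. Of the 3 ES H3K4me1 libraries, the second came from hybrid cells with the doxycycline-inducible 4F2A reprogramming transgene and the third from inbred C57BL/6 cells. The first H3K4me1 library, both p300 libraries and WCE came from cells grown 2 passages off feeders, and the other ES libraries from cells grown 1 passage off them. The 3 ES H3K4me1 libraries thus differ in genotype and passage, and nothing in the labels says that the 2 H3K27ac or the 2 p300 libraries came from separate cultures, so the spread between them may be technical. In a bulk population, less of a mark in every cell and the mark in fewer cells cannot be told apart.

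Depth set the grain of these values. The 20 libraries held 2452512 to 18216119 aligned reads and 694055 to 14280972 distinct autosomal positions. In the ES H3K4me3 library 70.0% of autosomal reads repeated a position, which left 2319684 positions, and in NPC Rfx1 72.5% did. Repeats were at most 20.6% in the other 18 libraries. The H3K27ac limit of 0.7 RPM corresponds to 6.14 and 5.88 reads in the 2 ES libraries, and 1 read in the iPS H3K4me1 library is worth 0.436 RPM.

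The values that chose the members are given as a description. The median ES H3K4me3 level of the 74 bins was 5.17 RPM, with a lowest of 4.31 and a highest of 15.95. Of the members, 22 stood at the least count that passes, 10 reads (4.31 RPM), and 39 bins that met every other limit stood just under it at 3.88 RPM. Median ES H3K27ac was 0.46 RPM in replicate 1 and 0.36 RPM in replicate 2, and the ES WCE library, which was not enriched for anything, had a median of 0.58 RPM in the same bins. The limit of 0.7 RPM holds the members' H3K27ac near the WCE level by choice. That level is not the background of the H3K27ac libraries. Over all autosomal bins their medians were 0.114 and 0 RPM, with upper quartiles of 0.342 and 0.238 RPM. The members' medians lay above those quartiles.

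The highest H3K27ac inside the limit was 0.684 RPM in replicate 1 and 0.595 RPM in replicate 2, and 15 members had a larger value of 0.6 to 0.7 RPM. Outside it, the lowest larger value was 0.714 RPM, and 44 bins lay between 0.7 and 0.8 RPM. Liver H3K4me3 had a median of 7.28 RPM, with a lowest of 1.01 RPM inside its limit and a highest of 0.633 RPM among the 8 bins outside it.

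Most members came from short H3K4me3 runs. The joined run held 2 H3K4me3 bins at 42 members, 3 at 24, 4 or more at 5 (the widest had 6), and was a lone bin at 3. Gaps bridged by the joining are not counted. All 19 autosomes held members. One pair lay within 50 kb, with starts 7000 bp apart on chromosome 3.

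For the 69 members with a single H3K4me3 neighbour, the bins could be read from outside to inside. ES H3K4me3 had a median of 5.17 RPM in the member, against 25.4 RPM in the inner neighbour and 0.431 RPM in the outer one. The inner neighbour was higher in H3K4me3 than the member in 65 of these 69 members. Within the member, 89.1% of ES H3K4me3 reads fell in the 500 bp next to the inner bin.

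H3K27ac in ES cells was concentrated in the same inner neighbour. Its median there was 6.73 RPM in replicate 1 and 9.40 RPM in replicate 2, and 68 of 69 inner neighbours reached 0.7 RPM in both libraries, while 55 reached 2 RPM in both. Averaged over the 69, ES H3K4me3 peaked 800 bp inward of the member's centre at 38.3 RPM per kb. ES H3K27ac peaked at the same distance, at 8.33 RPM per kb in replicate 1 and 15.2 RPM per kb in replicate 2. Within the member, 73.6% of ES H3K27ac reads in replicate 1 and 78.5% in replicate 2 fell in the 500 bp next to the inner bin. The low H3K27ac of these members therefore sat beside an acetylated H3K4me3 peak.

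**Figure D1:**
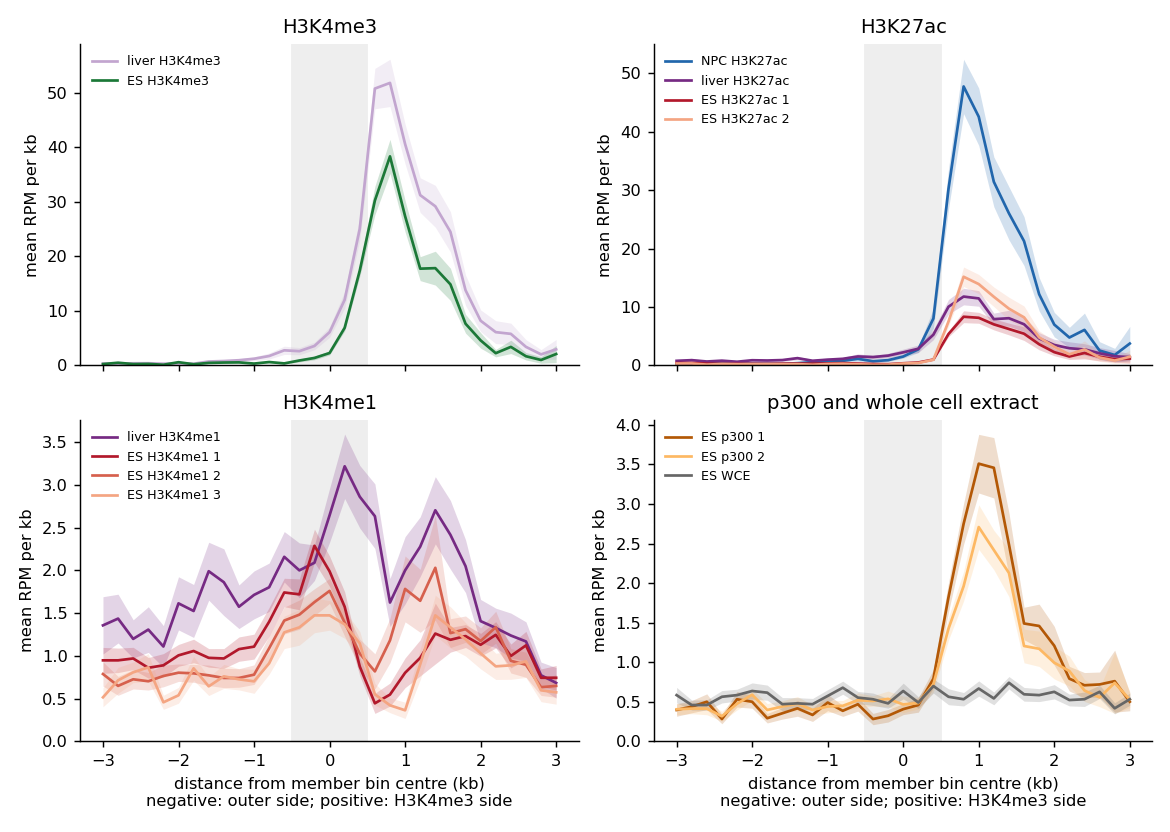
Mean level in RPM per kb (lines, with the standard error over bins as shading) in 200 bp windows against distance from the centre of the member bin in kb, for 69 members turned so that the H3K4me3 neighbour is on the right. The grey band is the member bin. H3K4me3, H3K27ac and p300 peak to the right of the band, and ES H3K4me1 has a maximum inside the band in each replicate and dips toward the H3K4me3 peak, with a second maximum at 1400 bp that is the higher one in replicate 2.

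Which bins qualify depended on where the 1 kb grid began. With every bin moved by 500 bp, the same limits gave 83 members, and 2 of the 74 original bins overlapped one of them.

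The 3 members with no H3K4me3 neighbour were the regions with every bin low in H3K27ac, and none had a neighbour of 0.7 RPM in both ES libraries. At chr2:81854001-81855000, ES H3K4me3 was 6.04 RPM (14 reads) and ES H3K27ac was 0.228 and 0.357 RPM. There NPC H3K27ac was 1.47 RPM, liver H3K27ac was 0.198 RPM and liver H3K4me3 was 4.81 RPM. H3K27ac was under 2 RPM there in each of the 3 cell sources in which it was measured, and H3K4me3 was present in ES cells and liver, the 2 in which it was measured.

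At chr13:21261001-21262000, ES H3K4me3 was 7.33 RPM (17 reads) and ES H3K27ac was 0.684 and 0.476 RPM. NPC H3K27ac was 0.294 RPM and liver H3K27ac 0.198 RPM. At chr3:127617001-127618000, which stood at the least count with 4.31 RPM of ES H3K4me3, ES H3K27ac was 0 and 0.476 RPM, NPC H3K27ac was 0 and liver H3K27ac was 0.396 RPM. None of the 3 bins reached 2 RPM of H3K27ac in NPCs or liver. The second member of the pair on chromosome 3, chr3:127624001-127625000, lies 7000 bp from the last of them and had NPC H3K27ac of 0.587 RPM and liver H3K27ac of 0.396 RPM.

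H3K27ac in NPCs, 1 library, varied widely among the members. Its median over the 74 bins was 1.47 RPM, with a lowest of 0 and a highest of 22.2, against medians of 0.46 and 0.36 RPM in the 2 ES libraries. At 2 RPM, which is 13.6 reads in this library, 30 members (40.5%) carried it. Over all autosomal bins that share was 1.91%, and over the 20896 bins with H3K4me3 in ES cells and liver it was 86.1%. It was 72.1% over 3380 acetylated bins at the outer end of an unbroken stretch with 4 to 8 RPM of ES H3K4me3. The difference from ES cells is not tested, since low ES H3K27ac chose the bins.

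The 5 members highest in NPC H3K27ac lay between 7.78 and 22.2 RPM. At chr12:84377001-84378000 NPC H3K27ac was 22.2 RPM (151 reads, exact 95% Poisson interval 18.8 to 26.0 RPM, which covers counting error), against 0.342 and 0.119 RPM in ES cells. At chr15:57907001-57908000 it was 21.3 RPM (145 reads, 18.0 to 25.05 RPM) in NPCs and 12.5 RPM in liver, against 0.114 and 0.357 RPM in ES cells. Both bins were acetylated in NPCs and held 1 or 3 reads in each ES H3K27ac library.

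The other 3 were chr14:103407001-103408000 with 11.01 RPM, chr1:178649001-178650000 with 8.51 RPM and chr17:10160001-10161000 with 7.78 RPM. Each of the 5 had an inner neighbour with more NPC H3K27ac, from 28.9 to 114.8 RPM. At the first 3 of the 5, the inner neighbour had at most 2.02 RPM of H3K27ac in ES cells. At chr12:84377001-84378000 the inner bin had 42.6 RPM in NPCs, against 0.913 and 1.78 RPM in ES cells. At chr15:57907001-57908000 the inner bin had 53.3 RPM in NPCs, against 1.14 and 1.43 RPM in ES cells.

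At chr14:103407001-103408000 the inner bin had 28.9 RPM in NPCs, against 0.799 and 2.02 RPM in ES cells. The inner bins of the other 2 were well acetylated in ES cells too. At chr1:178649001-178650000 the inner bin had 114.8 RPM in NPCs, against 10.95 and 22.8 RPM in ES cells. At these 2 members H3K27ac thus spanned the inner bin in both cell types.

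Liver H3K27ac, also 1 library, had a median of 1.19 RPM over the 74 bins, with a lowest of 0 and a highest of 20.8. At 2 RPM, which is 10.1 reads in this library, 20 members (27.03%) carried it. That share was 3.61% over all autosomal bins, 78.6% over bins with H3K4me3 in ES cells and liver, and 66.3% over the 3380 outermost acetylated bins. The highest was chr5:110525001-110526000, with 20.8 RPM (105 reads, 17.01 to 25.2 RPM) in liver and 0.294 RPM in NPCs, against 0.456 and 0.476 RPM in ES cells.

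The next 4 in liver were chr15:57907001-57908000 with 12.5 RPM, chr9:95368001-95369000 with 12.3 RPM, chr9:79951001-79952000 with 11.1 RPM and chr6:38804001-38805000 with 9.90 RPM. All 4 also passed 2 RPM in NPCs, at 21.3, 2.35, 7.63 and 6.90 RPM. Of the 5 highest in liver, the bin on chromosome 5 was the one under 2 RPM in NPCs.

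**Figure D2:**
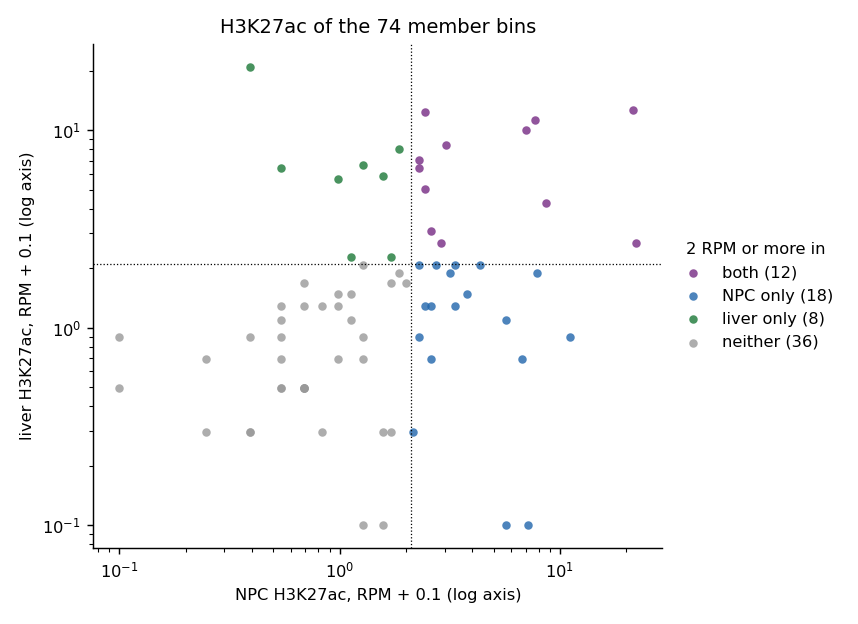
NPC H3K27ac (horizontal) against liver H3K27ac (vertical) in the 74 members, each in RPM plus 0.1 on log axes, 1 point per bin, coloured by whether it reached 2 RPM (dotted lines). In the plot, 12 bins passed in both, 18 in NPCs alone, 8 in liver alone and 36 in neither.

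Taking both cell sources, 12 members reached 2 RPM in NPCs and liver, 18 in NPCs alone, 8 in liver alone and 36 (48.6%) in neither. Both groups that passed in liver had a higher median liver H3K4me3 than the groups that did not, with overlapping ranges. The lowest value was 6.08 RPM among the 12, and the highest was 19.4 RPM among the 18. Median liver H3K4me3 was 15.96 RPM for the 12 and 15.3 RPM for the 8, against 6.33 RPM for the 18 and 5.26 RPM for the 36. Across the 74 bins, liver H3K27ac and liver H3K4me3 had a Spearman correlation of 0.76, and NPC and liver H3K27ac one of 0.38. These are descriptions over bins that share each library's depth.

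ES readouts overlapped among the 4 groups, and the order of their medians differed between libraries. Median ES H3K4me1 in replicate 1 was 1.76 RPM for the bins acetylated in both, 1.56 RPM for NPCs alone, 1.41 RPM for liver alone and 1.51 RPM for neither. In replicate 2 the medians in that order were 1.70, 1.01, 1.49 and 1.33 RPM, and in replicate 3 they were 1.45, 1.05, 1.05 and 1.29 RPM. The bins acetylated in both had the highest median in each H3K4me1 library. Median p300 was 0.287, 0.359, 0.287 and 0.359 RPM in replicate 1, and 0.728, 0.425, 0.425 and 0.485 RPM in replicate 2. The 4 ranges overlapped in each of these readouts.

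H3K27ac in NPCs and liver lay mostly in the inner neighbour as well. Over the 69 oriented members, the NPC median was 1.61 RPM in the member, 31.9 RPM in the inner bin and 0.294 RPM in the outer bin. The liver medians were 1.19 RPM in the member, 8.71 RPM in the inner bin and 0.396 RPM in the outer bin. The inner bin reached 2 RPM in NPCs at 66 of 69 members (95.7%) and in liver at 55 (79.7%). Over all bins with H3K4me3 in ES cells and liver, those shares were 86.1% and 78.6%.

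Every oriented member that itself reached 2 RPM, 29 in NPCs and 20 in liver, had an inner neighbour at 2 RPM or more in the same cells. The member was higher than its inner neighbour in 0 of 69 cases in NPCs and in 7 of 69 in liver. Of the reads inside these members, 83.7% in NPCs and 69.2% in liver fell in the 500 bp next to the inner bin. None of the 69 therefore reached 2 RPM of H3K27ac in NPCs or liver without a neighbouring H3K4me3 bin that did so too. In NPCs 66 of 69 inner bins passed, so that count was close to fixed in advance. Over the 3380 outermost acetylated bins, NPC medians were 4.84 RPM in the bin and 26.6 RPM in its inner neighbour. The liver medians there were 3.56 and 9.11 RPM, so the inner position is not particular to the members.

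ES H3K4me1, which the rule did not use, was present at a modest level. Median RPM over the 74 bins was 1.61, 1.33 and 1.29 in replicates 1, 2 and 3, and the median of the per-bin means was 1.39 RPM. In 29 members every library reached 1 RPM, in 2 every library reached 2 RPM, and in 7 every library was under 1 RPM. The 5 members with the highest lowest library were chr9:113591001-113592000, chr10:25050001-25051000, chr6:142345001-142346000, chr5:108608001-108609000 and chr8:27583001-27584000.

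At chr9:113591001-113592000 the 3 ES libraries gave 2.82, 2.88 and 2.58 RPM. At chr10:25050001-25051000 they gave 3.32, 2.77 and 2.097 RPM. These were the 2 members with at least 2 RPM in every library.

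Median ES H3K4me1 was higher in the member than on either side of it in each replicate. Over the 69 oriented members, the median in replicate 1 was 1.71 RPM in the member, 0.503 RPM in the inner bin and 1.11 RPM in the outer bin. In replicate 2 these medians were 1.49, 1.06 and 0.745 RPM, and in replicate 3 they were 1.29, 0.484 and 0.645 RPM. The mean was also higher in the member than in the inner bin in replicates 1 and 3. In replicate 2 it was not, at 1.46 RPM in the member and 1.49 RPM in the inner bin. The member exceeded its inner neighbour at 57, 42 and 51 of 69 members in the 3 libraries, and its outer neighbour at 47, 47 and 48.

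The reads of H3K4me1 also leaned outward within the bin, with 40.7%, 43.1% and 46.1% in the inner 500 bp. In that part lay 89.1% of the H3K4me3 reads. Total ES H3 leaned outward too, with 44.0% of its reads there, against 52.9% for WCE. Median ES H3 was 0.426 RPM in the member, 0.213 RPM in the inner bin and 0.533 RPM in the outer bin. The member exceeded its inner neighbour in H3 at 47 of 69 members and its outer neighbour at 22. Whether the H3K4me1 pattern goes beyond that of H3 was not tested. The flank is the usual place of H3K4me1 beside a promoter peak. Over the 3380 acetylated end bins, median H3K4me1 was also higher in the bin itself than on either side in each replicate. In replicate 1 the medians were 1.81 RPM in the bin, 0.804 RPM in the inner bin and 1.71 RPM in the outer bin. In replicate 2 they were 2.02, 1.38 and 1.60 RPM, and in replicate 3 they were 1.94, 0.645 and 1.61 RPM. In replicate 2 the outer bin was thus above the inner one, unlike in the members.

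Set against acetylated bins, the direction of the H3K4me1 difference depended on which of them were taken. The median of the members (1.39 RPM) was 0.0908 RPM above that of all 20479 acetylated bins (1.302 RPM). It was 0.505 RPM below that of the 4994 acetylated bins with ES H3K4me3 of 4 to 8 RPM (1.90 RPM), and 0.572 RPM below that of the 3380 outermost ones (1.96 RPM). Taking only the 63 members with ES H3K4me3 of 4 to 8 RPM (median 1.395 RPM), a comparison added after seeing the data, the differences were -0.502 and -0.569 RPM. Where both sets were held to that range, the low-acetylation bins thus had the lower median. Bins are not replicates, so no test is given.

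**Figure D3:**
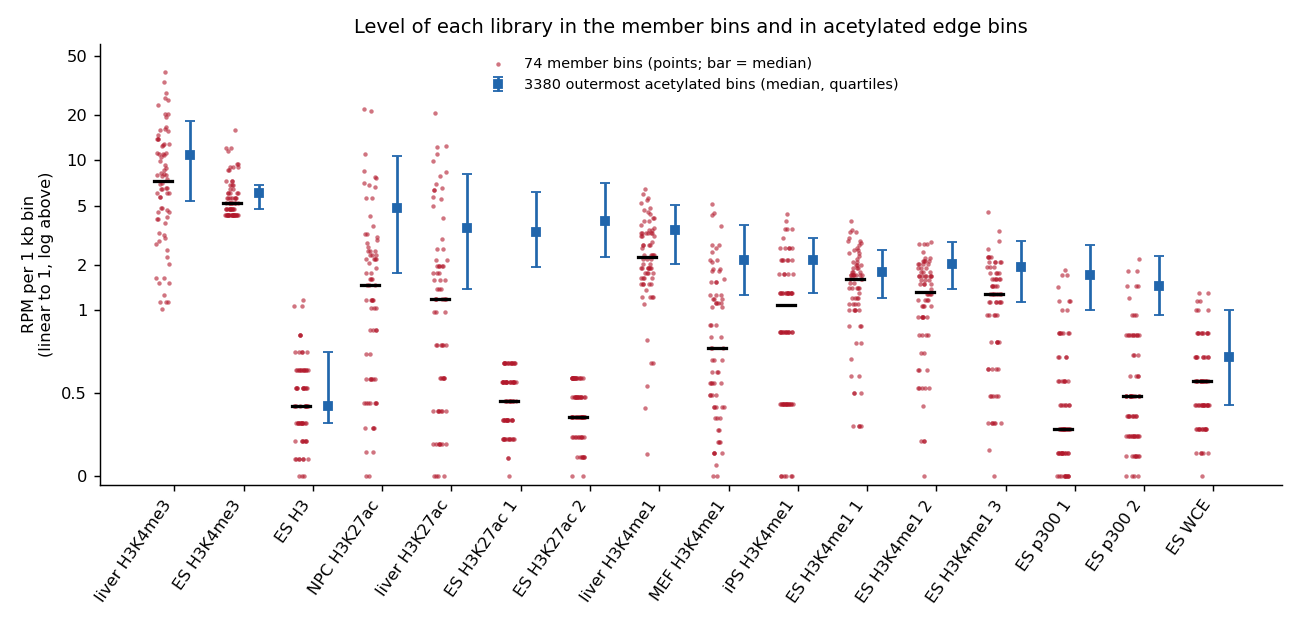
RPM per 1 kb bin (linear to 1, log above) of 16 libraries in the 74 members (red points, black bar for the median) and in the 3380 outermost acetylated bins with ES H3K4me3 of 4 to 8 RPM (blue squares for the median, bars for the quartiles). The members lie lower in both p300 libraries, with medians of 0.29 and 0.49 RPM against 1.72 and 1.46 RPM, while ES WCE medians are 0.58 and 0.72 RPM.

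Median p300 of the 74 members was below WCE in both libraries, but its ratio to WCE moved with the H3K27ac limit. Its median was 0.29 RPM in replicate 1 and 0.49 RPM in replicate 2, against 0.58 RPM in WCE. Over all autosomal bins the p300 medians were 0.144 and 0.243 RPM, against 0.288 RPM in WCE. A p300 median under that of WCE is thus not particular to the members. The median ratio of mean p300 to WCE, each with 0.1 RPM added, was 0.810 in the members, 3.02 in acetylated bins and 2.16 in the outermost acetylated bins. The members' ratio was 1.71 when ES H3K27ac replicate 2 was left out of the rule, which gave 318 members. Mean p300 was under WCE in 44 members, and both libraries were under it in 36. The share of all bins with p300 under WCE was not counted.

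Both p300 libraries reached 2-fold of WCE in 5 members, and 2 of the 74 had at least 10 reads in each library. In the first of these, chr5:108608001-108609000, p300 was 1.44 and 1.82 RPM, against 0.288 RPM in WCE. In the second, chr12:84377001-84378000, p300 was 1.87 and 2.18 RPM, against 0.863 RPM in WCE. The second is the bin with the highest NPC H3K27ac.

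The test of p300 against WCE used limma on log2 RPM of all bins with enough reads, 844050 in all, with p-values adjusted over all of them. Of the 74 members, 43 passed the read filter, so this count covers part of the members. One was higher, against 5.08% of all tested bins, and 0 were lower, against 0.0639%. At an unadjusted p under 0.05 the counts were 5 higher, against 10.2% of all tested bins, and 1 lower, against 1.83%. limma-voom called 0 in either direction, against 0.334% and 0% of all tested bins. The WCE arm is 1 library, assumed to vary as the 2 p300 libraries do. With 1 residual degree of freedom, the SE of a bin rests on the trend of that spread over all bins.

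The bin called was chr5:108608001-108609000 (log2 difference 1.76 ± 0.53 SE, limma adjusted p = 0.0219). It lost the call in the fit with every bin of 1 read or more and in limma-voom. The median log2 difference of the 43 was 0.07, against 0.01 over all tested bins. The read filter sums p300 and WCE reads, so bins passed partly through their p300, and nothing is concluded from these medians. With every bin of 1 read or more, all 74 members were tested, and their median was -0.27, against -0.28 over all tested bins. Away from the member, p300 had medians of 2.59 and 2.06 RPM in the inner neighbours, so p300 too lay in the H3K4me3 peak beside the member.

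H3K4me1 in liver, MEFs and iPS cells, 1 library each, was set against the 3 ES libraries in 1 limma fit over 901325 bins, in which all 74 members were tested. A single library was assumed to vary as ES libraries do. Liver H3K4me1 had a median of 2.25 RPM over the members, with a lowest of 0.14 and a highest of 6.42. The median log2 difference from ES cells was 0.64 in the members, against -0.42 over all tested bins and 0.76 in the outermost acetylated bins, and 65 of 74 members had a positive difference.

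In liver 8 members were higher, against 9.68% of all tested bins, and 1 was lower, against 15.3%. The largest difference was at chr2:81854001-81855000, the lone bin described above, with 6.01 RPM in liver, against 0.302, 0 and 0.484 RPM in ES cells (log2 difference 3.77 ± 0.69 SE, limma adjusted p = 0.0138). The liver value was far above all 3 ES values. The lone bin on chromosome 13, chr13:21261001-21262000, was also higher, with 1.91 RPM in liver, against 0.503, 0.532 and 0.323 RPM in ES cells (log2 difference 1.65 ± 0.46 SE, limma adjusted p = 0.0453).

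At chr3:18246001-18247000 H3K4me1 was 5.46 RPM in liver, against 0.905, 1.28 and 0.968 RPM in ES cells (log2 difference 2.15 ± 0.40 SE, limma adjusted p = 0.0142). The bin that was lower was chr6:38804001-38805000, with 0.410 RPM in liver, against 1.41, 1.70 and 1.77 RPM in ES cells (log2 difference -1.51 ± 0.44 SE, limma adjusted p = 0.0498). That bin is among the 5 highest in liver H3K27ac, at 9.90 RPM, and had 26.2 RPM of liver H3K4me3.

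MEF H3K4me1 had a median of 0.77 RPM over the members, with a lowest of 0 and a highest of 5.11. The median log2 difference from ES cells was -0.54, against -0.33 over all tested bins and 0.17 in the outermost acetylated bins. In MEFs 1 member was higher, against 10.2% of all tested bins, and 8 were lower, against 13.2%. The counts in both liver and MEFs were near or under the share over all tested bins. Among the outermost acetylated bins, 15.8% were higher and 1.51% lower in liver. In MEFs 5.63% of those bins were higher and 3.53% lower, against 1.35% and 10.8% of the members. The members' share of lower bins in MEFs was thus above that of the outermost acetylated bins. With TMM scaling, an alternative scaling of library totals, 5 members were higher in MEFs (6.76%) and 6 lower (8.11%). The outermost acetylated bins then gave 15.8% higher and 2.34% lower, and all tested bins 15.3% and 12.2%. How far lower members outnumbered higher ones thus depended on the scaling. The cause of the difference from the outermost acetylated bins was not tested.

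The bin higher in MEFs was chr3:127624001-127625000, with 5.11 RPM in MEFs, against 1.31, 1.92 and 2.097 RPM in ES cells (log2 difference 1.43 ± 0.39 SE, limma adjusted p = 0.0452). The largest decrease was at chr5:100655001-100656000, with 0 RPM in MEFs, against 1.81, 1.92 and 0.968 RPM in ES cells (limma adjusted p = 0.0158). The bin chr6:38804001-38805000, lower in liver, was lower in MEFs too, at 0.0700 RPM (log2 difference -2.58 ± 0.44 SE, limma adjusted p = 0.0141).

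Of the 5 members highest in ES H3K4me1, 3 were among the 8 that were lower in MEFs. At chr9:113591001-113592000, MEF H3K4me1 was 0.420 RPM, against 2.82, 2.88 and 2.58 RPM in ES cells. At chr8:27583001-27584000 it was 0.350 RPM in MEFs, against 3.92, 2.24 and 1.78 RPM in ES cells. At chr10:25050001-25051000 it was 0.770 RPM in MEFs, against 3.32, 2.77 and 2.097 RPM in ES cells. They were selected as high in ES cells, so a lower value elsewhere is partly set by that choice.

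iPS H3K4me1, the shallowest of the H3K4me1 libraries, had a median of 1.09 RPM. limma called 0 members higher and 0 lower, against 0% and 0% of all tested bins, and at an unadjusted p under 0.05 it gave 0 higher, against 4% of all tested bins, and 11 lower, against 11.8%. limma-voom also called 0 members, against 0.0456% of all tested bins higher and 0% lower. The median log2 difference was -0.18, against -0.21 over all bins.

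**Figure D4:**
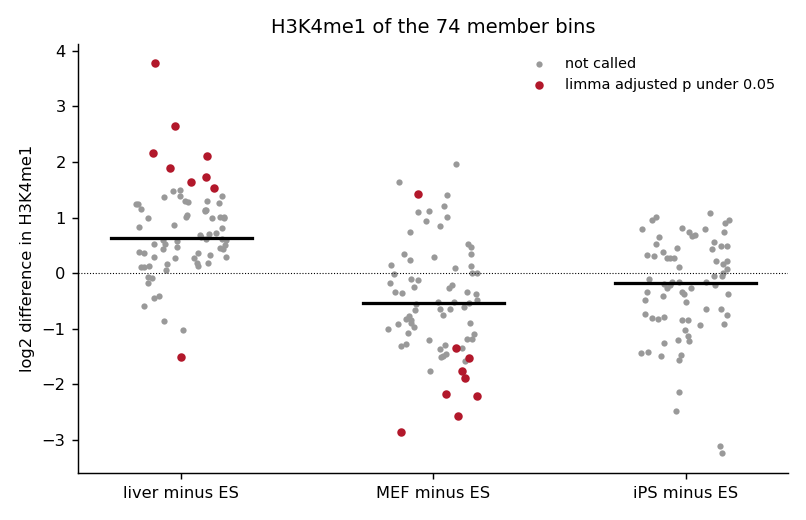
Log2 difference in H3K4me1 (vertical) of liver, MEFs and iPS cells from the 3 ES libraries in the 74 members, 1 point per bin, with red for a limma adjusted p under 0.05 and a black bar for the median. The medians are 0.64 in liver, -0.54 in MEFs and -0.18 in iPS cells.

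The H3K4me1 calls rested on which libraries entered. Without ES replicate 1 or without ES replicate 2, limma called 0 members and 0 of all tested bins in liver and in MEFs, so these fits say nothing about the members. Without replicate 3, it called 7 members higher and 0 lower in liver, against 10.5% and 17.2% of all tested bins. In MEFs it called 2 higher and 14 lower, against 11.4% and 14.7%. The median differences kept their sign in each of these fits.

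The 5 members highest in ES H3K4me3, the value they were selected on, ranged from 9.48 to 15.95 RPM. The last place was a tie, taken in genome order, with chr9:4308001-4309000 (9.48 RPM), which had NPC H3K27ac of 0.587 RPM. The first, chr6:67198001-67199000, is 1 of the 2 members with H3K4me3 on both sides. It lies in a run with 5 H3K4me3 bins and had 15.95 RPM (37 reads). Its ES H3K4me1 was 0.302, 0.213 and 0.484 RPM, and its liver H3K4me1 was higher, at 2.19 RPM (log2 difference 2.104 ± 0.53 SE, limma adjusted p = 0.0347). The other 4 were chr13:23526001-23527000 and chr15:8057001-8058000 with 12.1 RPM each, chr17:45575001-45576000 with 11.6 RPM and chr2:129976001-129977000 with 9.48 RPM. Of the 5, 2 reached 2 RPM of H3K27ac in NPCs, at 2.64 and 2.35 RPM, and 0 did in liver, where the highest was 1.98 RPM.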

How the data were processed

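Per the labels' protocols, fragments averaged 500 bp after sonication, PCR ran for 18 cycles, and shear fragments of 100 to 250 nt were isolated. The authors deposited, for each of the 20 libraries, aligned reads as signed positions per chromosome, where a minus sign is the reverse strand (unit: other, neither counts nor a normalised signal). Neither the build nor the aligner is given in the sources used here. Positions fit the mm8 lengths on 19 of 19 autosomes and the mm9 lengths on 14, so coordinates, 1-based, are taken as mm8. The assembly lengths were written from general knowledge, not read from a file, so the build is an inference. No mm8 sequence or annotation was used, so bins carry no gene names or sequence. One description of the second p300 library reads p301, and it was used as p300.

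Reads were counted once per position and strand on the autosomes, moved 100 bp to the fragment centre and summed in 1000 bp bins as RPM of distinct autosomal reads. Libraries were grouped by their titles. Replicates differed beyond sampling noise (chi-square per degree of freedom of 1.26 to 2.15), so each was kept. The members and lists were chosen with earlier results of these data known. Named bins were the 5 highest in NPC H3K27ac, liver H3K27ac, ES H3K4me1 (lowest library) and ES H3K4me3, and those highest in p300 with at least 10 reads in each p300 library (2 bins). All members had 1 bin, so a list by size adds none. The lone bins, the pair on chromosome 3 and called bins were named after their values were seen.

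Differences were fitted with limma 3.58.1 in R 4.3.3 (trend, prior count 2, bins with a sum of at least 10 reads, Benjamini-Hochberg adjustment at 0.05 over all bins tested), on log2 RPM. The fit had 2 residual degrees of freedom for H3K4me1 and 1 for p300. The fitting code was tested on simulated data. Poisson intervals cover counting error only, and PCR reads carry no molecular identifiers. Alternatives covered the limits, read repeats, the grid, scaling, the prior count, the read filter, limma-voom and each replicate left out.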

Additional observations from a re-analysis of the deposited data

Results flagged for a closer look

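Rfx1, a transcription factor of the winged-helix RFX family, was profiled in NPCs in 1 library and entered no comparison above. Its level was above both whole cell extracts, which were from other cells since no NPC extract was used, in 22 members. These 22 were all the members with any Rfx1 read, since 52 had 0, and 1 read is worth 1.44 RPM. At least 1 read fell in 29.7% of members, against 11.8% of all autosomal bins. That share was 83.8% over bins with H3K4me3 in ES cells and liver and 62.8% over the outermost acetylated bins. In 10 of the 22 members the counting interval lay above both extracts, and in 2 of those it rested on at least 10 reads, the limit used here. At chr9:8135001-8136000, Rfx1 was 69.2 RPM (48 reads, exact 95% Poisson interval 51.0 to 91.7 RPM), against 1.15 RPM in ES WCE and 2.54 RPM in liver WCE. At chr9:108455001-108456000 it was 27.4 RPM (19 reads, 16.5 to 42.8 RPM), against 0.288 RPM in ES WCE and 0 RPM in liver WCE. NPC H3K27ac in these bins was 0.440 and 1.47 RPM. The median of Rfx1 over the 74 members was 0, and over the 69 oriented members 98.2% of its reads fell in the 500 bp next to the inner bin. Repeats made up 72.5% of the reads of this library, and their part in the 2 values was not tested.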

How the results depend on the processing

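Among the alternative values of the main results, 58 stayed within the spread or within 1.5 times, 29 moved and 4 reversed. For the NPC and liver H3K27ac shares, the spread was a binomial interval over the 74 bins, in 1 library each. It ran from 30.1 to 51.9% for NPCs and from 18.2 to 38.1% for liver. Bins are not replicates, so these intervals do not give the spread between libraries. The number of members was 30 with an H3K27ac limit of 0.5 RPM, 197 with 1 RPM and 24 with ES H3K4me3 of at least 6 RPM, and 160 to 318 without 1 ES H3K27ac replicate. The share with NPC H3K27ac was 25% with repeats kept, 63.5% at 1 RPM, 21.6% at 3 RPM and 44.4 to 58.5% without 1 ES H3K27ac replicate. The share with liver H3K27ac was 55.4% at 1 RPM and 30.2 to 39.4% without 1 such replicate. Median ES H3K4me1 was 1.12 RPM with ES H3K4me3 of at least 6 RPM. It was 1.21 to 1.56 RPM with 1 ES H3K27ac replicate left out of the rule, which changes the members. With 1 ES H3K4me1 library left out it was 1.34 to 1.43 RPM. The p300 ratio to WCE was 1.13 with the 1 RPM limit and 1 on the shifted grid. It was 0.933 to 1.71 with 1 ES H3K27ac replicate left out of the rule and 0.672 to 0.925 with 1 p300 library left out. The H3K4me1 difference of members from acetylated bins, 0.0908 RPM, reversed to -0.505 and, in a comparison chosen after seeing the data, -0.572 RPM with acetylated bins of 4 to 8 RPM, and to -0.502 and -0.569 RPM, also chosen after seeing the data, with members held to that range too. Calls in liver numbered 0 with every bin of 1 read or more, 0 with H3K4me3 bins alone in the fit and 19 with limma-voom, all higher. Those in MEFs numbered 0, 0 and 25 (8 higher and 17 lower). The fits with 0 called 0 of all bins, and limma-voom called 14.2% of all bins higher and 9.45% lower in liver, and 18.4% and 18.95% in MEFs. Without 1 ES H3K4me1 replicate, they numbered 0 to 7 in liver and 0 to 16 in MEFs. p300 calls numbered 2 without the read filter, both lower, where 7.28% of all bins were lower, and 0 with limma-voom, and the median p300 difference reversed to -0.27 without the filter, where 74 members were tested in place of 43. TMM scaling moved the median of all bins to -0.27 in liver, -0.10 in MEFs and -0.54 in iPS cells, and those of the members to 0.92, -0.24 and -0.72. Except where a change of filter or samples is named, the cause was not tested. No paired analysis was possible because H3K27ac and p300 share replicate numbers but are never compared, and the H3K4me1 titles carry none. Depth limits single bins: the H3K27ac limit is about 6 reads.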
